A study of Caenorhabditis elegans with 205 samples.

Results

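The ASEL neuron is the left member of the ASE pair of salt-sensing neurons in the head of Caenorhabditis elegans. Its transcriptome was measured in 3 libraries, 1.46% of the libraries of sorted neurons in the series, which fall into 53 classes. ASEL libraries are the count columns named ASELr and a number (ASELr149, ASELr150 and ASELr151), and they were set against all libraries of the other 52 classes. ASER, the right member of the pair, has 4 libraries (ASERr144 to ASERr147). Another comparison used 16 other classes of ciliated sensory neurons, ASER among them, with 62 libraries. Every library is total RNA from untreated worms grown on plates with bacteria. Cells were isolated by fluorescence-activated sorting into Trizol, per the labels' protocols. The labels name the Tecan SoLo Ovation kit for making the libraries, except for 25 libraries in 7 of the other classes, for which they describe no kit. The strain, the fluorescent reporter used to sort each class, the number of cells and the age of the worms are not given in the sources used here. Nothing in the labels says that libraries of a class came from separate cultures, so p-values measure the spread between these libraries, which may be technical.

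The paired ASE neurons look alike but taste different ions: ASEL is known mainly for sodium and ASER for chloride and potassium. Their salt receptors are thought to be receptor-type guanylyl cyclases, the products of gcy genes, which make cyclic GMP in the sensory cilium and open the TAX-2/TAX-4 channel. The zinc finger factor CHE-1 switches on the genes common to both neurons. A regulatory loop then splits the sides, with the microRNA lsy-6 and the factors DIE-1 and LIM-6 on the left and COG-1 and FOZI-1 on the right. The comparison with the other classes asks which genes mark ASEL in the nervous system, and that with ASER asks how the left neuron differs from the right.

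Levels are given in CPM, read counts scaled to a common library size and adjusted for library composition with TMM factors. These factors were 0.256 to 0.718 in ASEL and 0.280 to 0.488 in ASER, so the CPM lie above values scaled by total counts alone. Values per library follow the order r149, r150, r151 for ASEL and r144, r145, r146, r147 for ASER. Total counts were 2225226 to 6658011 in ASEL and 6566964 to 10352945 in ASER, of which ribosomal RNA took 44.7% to 76.1% and 45% to 67%. ASELr149 had the highest ribosomal share and the fewest genes with counts, 12271. Its profile correlated with the other ASEL libraries at r = 0.919 and 0.921 over 20427 genes, while ASELr150 and ASELr151 correlated at 0.971. Every ASEL library was nearest to another ASEL library, and correlations with ASER ran from 0.889 to 0.932. ASELr150 and ASELr151 reached 0.932 and 0.929 with an ASER library, above their values with ASELr149. The highest correlations with libraries of the remaining classes were 0.871, 0.908 and 0.914, within the range for ASER in the case of ASELr150 and ASELr151. Results are also given without ASELr149 where that changes them.

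The 3 marker genes of ASEL were highest in the libraries labelled so. The receptor cyclase gene gcy-14, needed for the response to sodium, had 524, 621 and 510.4 CPM in ASEL libraries, against 1.73, 0.901, 0 and 3.76 CPM in ASER libraries. The related gene gcy-7 had 201.7, 197.5 and 169 CPM in ASEL and 0, 0.901, 0 and 5.65 CPM in ASER. For gcy-6, another receptor cyclase of the left neuron, the values were 47.3, 16.4 and 13.2 CPM in ASEL and 0, 2.10, 0.624 and 3.76 CPM in ASER. All 3 genes were higher in each ASEL library than in any library of the other 52 classes, whose maxima were 14.9 CPM for gcy-14, 10.1 CPM for gcy-7 and 4.37 CPM for gcy-6. Of the 3, gcy-6 varied most among ASEL libraries, with the high value in ASELr149. The remaining gene listed for the left neuron, gcy-20, had 160.2, 97.1 and 60.8 CPM in ASEL and 3.11, 0.601, 0.624 and 0.376 CPM in ASER, again without overlap with any other library. The loci of gcy-7 and the 2 genes gcy-14 and gcy-20 overlap other annotated genes, and whether reads were counted by strand is not given in the sources used here.

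All 4 left cyclase genes were called higher in ASEL in each of the 3 comparisons, by edgeR's quasi-likelihood test with a Benjamini-Hochberg adjusted p under 0.05. Over all 20427 genes tested against the other 52 classes, 8.45% were called higher and 3.24% lower. The log2 fold changes against the mean of the other 52 classes were 9.94 ± 0.29 for gcy-14, 8.23 ± 0.36 for gcy-20, 7.91 ± 0.32 for gcy-7 and 5.79 ± 0.48 for gcy-6 (± SE). In the pair of ASEL and ASER, where 5.27% of 10059 genes were called higher and 6.08% lower, gcy-14 had a log2 fold change of 8.64 ± 0.60 (edgeR adjusted p = 1.4e-06). The smallest of the 4 in that pair was gcy-6, at 4.11 ± 0.76 (edgeR adjusted p = 0.0031). It missed the threshold (adjusted p = 0.062) in the edgeR fit that took ASEL and ASER together with all other classes. Against the 16 ciliated classes, where 5.84% of genes were called higher and 2.23% lower, the log2 fold changes ran from 5.30 for gcy-6 to 9.38 for gcy-14.

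The left cyclase genes differed in level among themselves. Per kilobase of exon, ASEL averaged 147.4 CPM for gcy-14, 55.6 for gcy-7, 31.9 for gcy-20 and 7.85 for gcy-6. All 4 lie on chromosome V, gcy-14 at 14863134 to 14868281, gcy-7 at 8387356 to 8392324, gcy-6 at 10308291 to 10314053 and gcy-20 at 16248583 to 16253787 (build WBcel235). A gene of the family outside the left list, gcy-17, had the same pattern, with 175.2, 90.9 and 78.8 CPM in ASEL and 1.73, 1.80, 1.56 and 1.51 CPM in ASER. The highest library of the other classes reached 7.75 CPM, and the log2 fold change against ASER was 6.31 ± 0.42 (edgeR adjusted p = 1.2e-06).

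**Figure D1:**
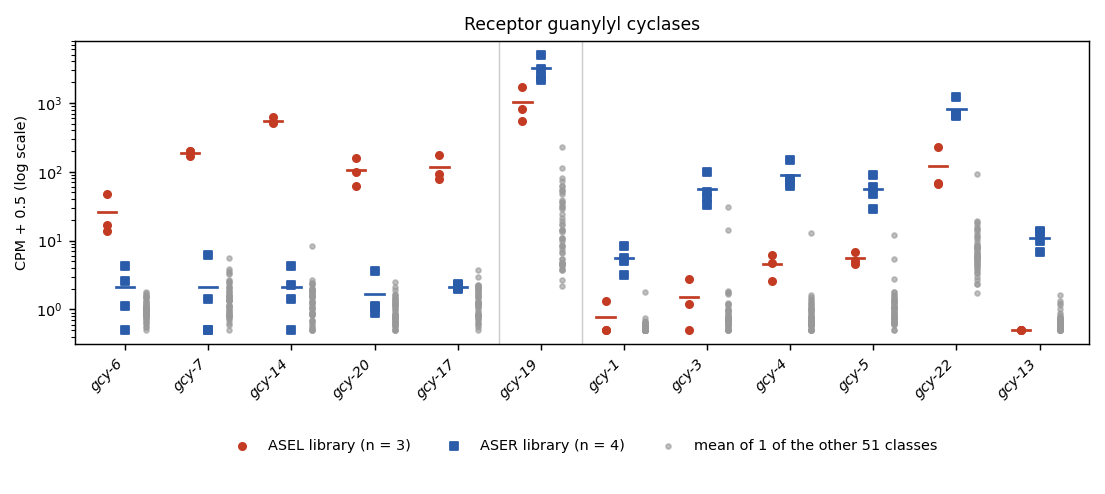
CPM plus 0.5 on a log axis for 12 receptor guanylyl cyclase genes. Circles are the 3 ASEL libraries, squares the 4 ASER libraries, bars their means and grey points the means of the other 51 classes; the left cyclase genes and gcy-17 sit high in ASEL alone, gcy-19 is high in both, and the right cyclase genes and gcy-13 sit higher in ASER.

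The right cyclase genes were lower in ASEL than in ASER, but gcy-22 was well above the limit of detection in ASEL. Transcripts of gcy-22, a receptor cyclase on which most ion responses of ASER depend, measured 227.1, 68.4 and 65.5 CPM in ASEL and 1232, 677, 645 and 661 CPM in ASER. ASEL thus ranked after ASER among the 53 classes for this gene, and its log2 fold change was 4.12 ± 0.36 against the other 52 classes and -2.50 ± 0.49 against ASER (edgeR adjusted p = 1.7e-20 and 0.0045). For gcy-4 the libraries had 5.76, 2.05 and 4.18 CPM in ASEL and 148, 61.3, 70.2 and 77.9 CPM in ASER. For gcy-5 they had 4.61, 4.10 and 6.27 CPM in ASEL and 87.7, 60.4, 47.8 and 28.2 CPM in ASER. No ASEL library reached the lowest ASER library for either gene. The gene gcy-3 had 2.31, 0.684 and 0 CPM in ASEL, from 3 counts in all, and 97.8, 31.8, 50.6 and 41.4 CPM in ASER. The lowest-expressed of the 5, gcy-1, had 0, 0 and 0.836 CPM in ASEL, from 4 counts in ASELr151, and 7.95, 2.704, 4.99 and 4.52 CPM in ASER.

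All 5 right cyclase genes were called lower in ASEL than in ASER, beside 6.08% of all genes. Against the other 52 classes 4 of 5, all but gcy-3, were called higher in ASEL, beside 8.45% of all genes. The mean in ASEL was 15% of that in ASER for gcy-22, 8.91% for gcy-5 and 4.48% for gcy-4, while gcy-1 and gcy-3 had too few counts in ASEL for a share. The gcy-22 share leans on ASELr149, where that gene was far above its level in ASELr150 and ASELr151. The 5 genes summed to 239.7 CPM in ASELr149, 75.2 CPM in ASELr150 and 76.7 CPM in ASELr151. Whether ASER cells or free RNA entered the ASEL sort was not tested. Fewer cells of a type and less RNA per cell cannot be told apart in such pools. The gcy-1 call against ASER was lost without any 1 of the ASEL libraries (edgeR adjusted p = 0.06 without ASELr149, 0.15 without ASELr150 and 0.069 without ASELr151). Its log2 fold change against the other classes turned to -1.28 (adjusted p = 1) without ASELr151, which holds all its counts in ASEL. When all other libraries were taken as 1 group, none of the 5 was called higher in ASEL. When the pair was fitted together with all classes, 2 of the 5, gcy-3 and gcy-4, were called lower, beside 0.911% of all genes. In that fit gcy-22 had an edgeR adjusted p of 0.055.

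Another pair of cyclase genes outside these lists differed in pattern. The family member gcy-19 was abundant on both sides, with 1723, 811 and 553 CPM in ASEL and 5049, 2359, 3112 and 2168 CPM in ASER. It was the highest of the receptor cyclases in ASEL per kilobase, at 276 CPM, against 851 in ASER, and the difference of -1.36 ± 0.42 on the log2 scale missed the threshold (edgeR adjusted p = 0.056). The gene gcy-13 had 0 counts in all 3 ASEL libraries and 13.5, 12.6, 9.37 and 6.40 CPM in ASER. Its level was at least 5.12-fold lower in ASEL, taking 3 counts per library as the limit that a count of 0 allows. Of the cyclase genes of AFD, gcy-8, gcy-18 and gcy-23 had at most 4.61 CPM in any ASEL library. The receptor cyclase gene gcy-9, highest in BAG at 186.2 ± 91.2 CPM (SD, n = 4), had 50.7, 14.4 and 11.9 CPM in ASEL and 32.5, 19.5, 17.5 and 12.4 CPM in ASER, where the libraries overlapped. It was called higher in ASEL than in the other 52 classes (log2 fold change 3.59 ± 0.50, edgeR adjusted p = 1.1e-09) and than in the ciliated ones (2.38 ± 0.56, adjusted p = 0.0011). The first call was lost with the other libraries as 1 group (adjusted p = 0.54) and the second without ASELr149 (0.34).

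The factors of the left program followed the same division. The LIM homeobox gene lim-6, required for the left pattern of gcy genes, had 518, 276 and 295 CPM in ASEL and 2.42, 6.01, 2.19 and 2.63 CPM in ASER. ASEL was the highest of the 53 classes for lim-6, ahead of DVB at 144.7 ± 74.6 CPM (SD, n = 3), and its log2 fold change against ASER was 6.97 ± 0.44 (edgeR adjusted p = 1.2e-06). The zinc finger gene die-1, which acts on the left side of the loop, had 152.1, 111.4 and 89.9 CPM in ASEL and 19, 19.5, 14.7 and 24.5 CPM in ASER. The log2 fold change was 2.80 ± 0.32 (edgeR adjusted p = 7.3e-05), and 3 other classes, AFD the highest at 316 ± 61.3 CPM (SD, n = 5), lay above ASEL. The lim-6 locus overlaps pfn-3 on the other strand, so some of its reads may not be its own. The lsy-6 gene had 1 count in each ASEL library and 0 in the ASER libraries, below the filter for testing.

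The factors of the right program were lower in ASEL. The homeobox gene cog-1, the target of lsy-6, had 5.76, 15 and 14.4 CPM in ASEL and 48, 48.4, 49 and 28.2 CPM in ASER (log2 fold change -1.62 ± 0.35, edgeR adjusted p = 0.0073). The fozi-1 gene, which encodes a zinc finger protein with a formin homology domain, had 4.61, 18.5 and 12.5 CPM in ASEL and 109.5, 84.1, 122.4 and 121.6 CPM in ASER (log2 fold change -2.97 ± 0.36, edgeR adjusted p = 0.00014). Neither gene overlapped between the 2 classes. Against the other 52 classes, neither passed the threshold, with log2 fold changes of -0.11 ± 0.51 and -0.60 ± 0.59. In the fit over all classes the cog-1 difference from ASER missed the threshold (edgeR adjusted p = 0.18).

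The factors shared by the pair ranked high in both neurons. The terminal selector che-1 had 38, 31.4 and 54.4 CPM in ASEL and 143.7, 114, 144.2 and 46.3 CPM in ASER. The homeobox gene ceh-36, active in ASE and AWC, had 233.97, 275 and 447 CPM in ASEL and 264, 248, 307 and 126.5 CPM in ASER, while AWC averaged 347 ± 181.99 CPM (SD, n = 4). These 3 neighbours in the order did not differ beyond the spread of their libraries. The paired-like homeobox gene dsc-1 had 218.99, 377 and 345 CPM in ASEL and 1292, 1305, 754 and 478 CPM in ASER, and ASEL ranked after ASER for dsc-1 and che-1. All 3 genes were called higher in ASEL than in the other 52 classes, with log2 fold changes of 8.74 ± 0.37, 8.48 ± 0.30 and 7.77 ± 0.32. Against ASER, che-1 was lower by 1.20 ± 0.35 on the log2 scale (edgeR adjusted p = 0.042), a call that was lost in 8 of 14 alternatives, among them the omission of any ASEL library. The call for dsc-1 against ASER, -1.40 ± 0.35 (edgeR adjusted p = 0.017), was lost without ASELr149 (adjusted p = 0.061), without ASELr151 (0.077), without ASERr145 (0.051) and in the fit over all classes (0.51). With the other libraries as 1 group, che-1 and dsc-1 were not called either (edgeR adjusted p = 0.073 and 0.22).

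**Figure D2:**
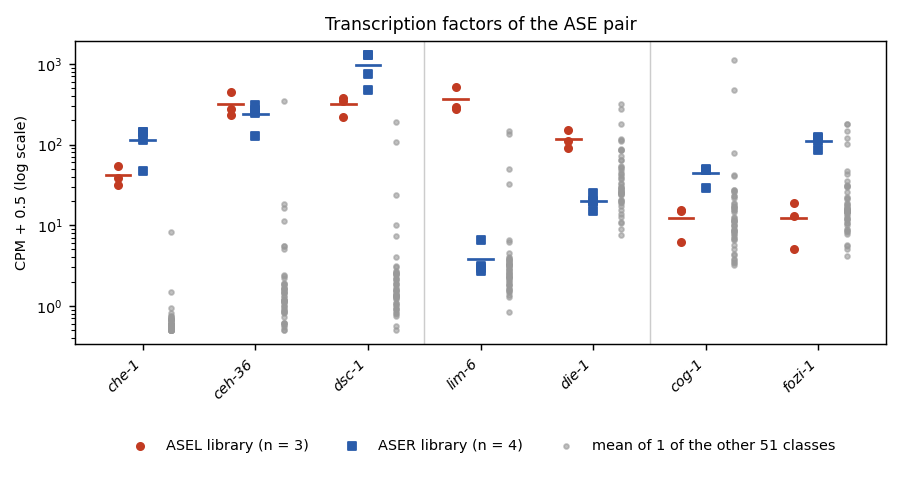
CPM plus 0.5 on a log axis for 7 transcription factor genes, with circles for the 3 ASEL libraries, squares for the 4 ASER libraries, bars for means and grey points for the means of the other 51 classes. Genes shared by the pair are on the left, lim-6 and die-1 in the middle with ASEL above ASER, and cog-1 and fozi-1 on the right with ASEL below ASER.

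Of the 16 regulators listed, 14 passed the filter on low counts against the other classes. ASEL was called higher for 4 (che-1, ceh-36, lim-6 and die-1) and lower for 1, lsy-22. These were 28.6% and 7.14%, beside 8.45% and 3.24% of all genes. The gene lsy-22, first found by its effect on ASE asymmetry, had 11.5, 26 and 21.5 CPM in ASEL against a mean of 70.9 CPM over the other classes. The lsy-22 call was lost without ASELr149 (edgeR adjusted p = 0.065). Against ASER, 2 of 12 (16.7%) were called higher and 4 (33.3%) lower, beside 5.27% and 6.08% of all genes. The 4 called lower were che-1, cog-1, fozi-1 and ceh-23. The ceh-23 call was lost without ASELr150 (edgeR adjusted p = 0.11), without ASELr151 (0.12), without ASERr144 (0.053) and in the fit over all classes (0.19). The listed co-repressor gene unc-37 and the zinc finger gene lsy-2 were not called in either comparison.

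Of 14 listed genes of cyclic GMP signalling, 8 (57.1%) were called higher in ASEL than in the other 52 classes, beside 8.45% of all genes. Against the 16 ciliated classes, 3 (21.4%) were called higher, beside 5.84% of all genes. The channel subunit gene tax-4 had 25.4, 21.9 and 22.4 CPM in ASEL, 81.5, 31.2, 31.8 and 18.4 CPM in ASER and a mean of 13.3 CPM over the other 52 classes. Its partner tax-2 was lower, at 11.5, 6.15 and 7.95 CPM in ASEL against 32.5, 11.7, 34 and 13.9 CPM in ASER. A further subunit gene of the same channel family, cng-2, had 130.2, 95 and 111.9 CPM in ASEL and 104.3, 89.2, 59.3 and 48.2 CPM in ASER, and was called higher than in the ciliated classes too (log2 fold change 3.65 ± 0.44, edgeR adjusted p = 4.4e-12). None of the 3 passed the threshold against ASER, where the phosphodiesterase genes pde-1, pde-2 and pde-5 were called lower (log2 fold change -1.20, -1.19 and -1.91). The others called higher than in the 52 classes were the channel gene cng-3 and the phosphodiesterase genes pde-1, pde-3, pde-5 and pde-6. With the other libraries as 1 group, none of the 8 was called, and tax-2 and pde-5 turned to -0.16 and -1.02 on the log2 scale. Calls lost without 1 library included those of pde-6 against the other classes and of pde-1 and pde-2 against ASER, the last 2 without ASELr150 (edgeR adjusted p = 0.16 and 0.066) or ASELr151 (0.13 and 0.12).

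Of 56 listed genes of the sensory cilium tested, such as those for intraflagellar transport and the BBSome, 36 (64.3%) were called higher than in the 52 classes and 1 (1.79%) than in the 16 ciliated classes, beside 8.45% and 5.84% of all genes. The median log2 fold change was 1.84 and -0.38 in these comparisons, beside -0.23 and -0.22 over all genes. With all other libraries as 1 group, 0 of the 56 cilia genes were called by edgeR, where 2453 of the 20427 genes had an unadjusted p under 0.05. Against ASER, 1 of 55 was higher and 10 (18.2%) were lower, beside the 6.08% of all genes. The higher one was bbs-8, a BBSome subunit, with 77.2, 41.7 and 60.8 CPM in ASEL and 35.6, 19.8, 27.2 and 14.3 CPM in ASER, without overlap. Its call was lost without ASELr149 (edgeR adjusted p = 0.051). With all classes fitted together none of these 11 was called. The largest fall was that of che-12, a gene for ciliary function, with 35.7, 15.7 and 24.5 CPM in ASEL and 143.02, 107.5, 133 and 107 CPM in ASER. The ciliary alpha-tubulin gene tba-5 had 79.5, 67 and 84.3 CPM in ASEL and 418, 206.7, 517 and 136.3 CPM in ASER.

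Some transcripts common to all neurons, and some of other tissues, differed between ASEL and ASER. The 18 pan-neuronal genes summed to 6909 to 7391 CPM in ASEL and 7253 to 16278 CPM in ASER and, with CPM scaled without the ribosomal RNA genes, to 7904 to 8971 in ASEL and 7889 to 13887 in ASER. The ranges overlapped under both scalings. Of these 18, 6 (33.3%) were called lower in ASEL than in ASER, beside 6.08% of all genes, and 0 higher. The SNAP-25 gene ric-4 had 140.6, 124 and 128.6 CPM in ASEL against 933, 419.7, 1088 and 292 CPM in ASER, and the Ras exchange factor gene rgef-1 had 33.4, 40.3 and 47.5 CPM against 306, 144.2, 182.6 and 128.7 CPM. Markers of the germline summed to 265.1 to 392 CPM in ASEL and 78.1 to 175.1 CPM in ASER, and those of the hypodermis to 172.9 to 369 CPM in ASEL and 86.7 to 188.6 CPM in ASER. Intestinal markers summed to 685 to 728 CPM in ASEL and 262 to 985 CPM in ASER. In the pair, 4 of 5 germline genes and 3 of 5 hypodermal genes were called higher in ASEL, beside 5.27% of all genes. The most abundant of the germline genes, the helicase gene glh-1, had 184.4, 185.2 and 242.6 CPM in ASEL and 35.9, 53.8, 91.2 and 78.7 CPM in ASER. The part of pan-neuronal, germline, hypodermal and intestinal transcripts in the differences from ASER was not tested. When ASEL and ASER were fitted with all classes, ric-4, rgef-1 and glh-1 were not called (edgeR adjusted p = 0.075, 0.098 and 0.13).

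**Figure D3:**
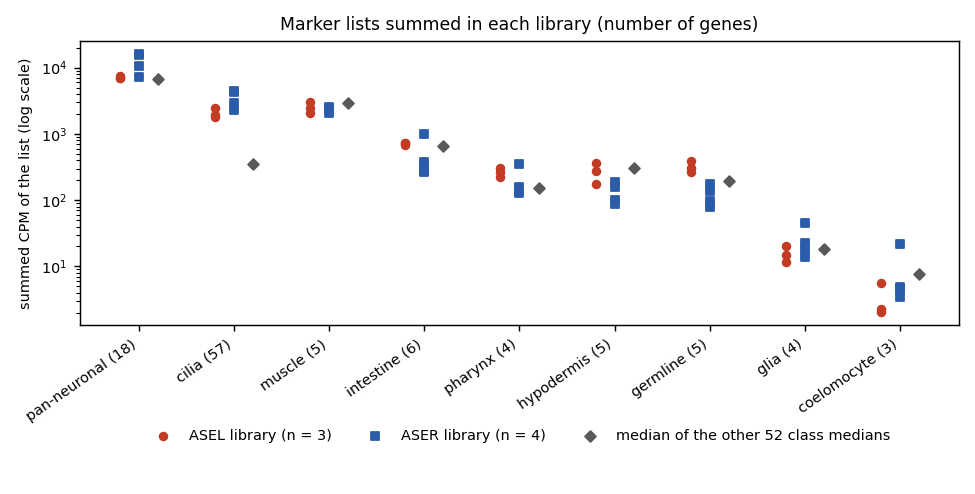
Summed CPM of marker lists on a log axis, with circles for the 3 ASEL libraries, squares for the 4 ASER libraries and diamonds for the median of the other 52 class medians. The number of genes is in brackets; pan-neuronal sums overlap between ASEL and ASER, germline sums are higher in ASEL than in every ASER library, and cilia sums in both lie above the median of the other classes.

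Markers of other sensory classes ranged in ASEL from 0 counts to sums of 74.9 CPM. The AWB gene str-1 and the ASK genes srg-8 and sra-9 had 0 counts in all ASEL libraries, and the 3 AWC genes summed to at most 2.05 CPM in any of them. The 2 ASI genes summed to 36 to 74.9 CPM in ASEL and 268.7 to 445 CPM in ASER, and the 3 BAG genes to 23.8 to 63.4 CPM in ASEL and 44.8 to 102.9 CPM in ASER. The medians of these 2 sums over the other 52 classes were 19.2 and 36 CPM. The 2 AWA genes summed to 2.51 to 24.6 CPM in ASEL and 5.31 to 30.9 CPM in ASER, beside a median of 5.42 CPM. The ASG gene gcy-15 had 4.81 to 17.3 CPM in ASEL and 7.15 to 16.2 CPM in ASER, beside a median of 3.03 CPM. For the ADL, URX, ADF, ASJ and AFD genes the highest ASEL sums were 3.46, 5.76, 4.61, 6.15 and 8.89 CPM. The medians for these were 0.287, 2.32, 1.70, 1.42 and 4.88 CPM.

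Several peptide genes were abundant in both neurons of the pair. The neuropeptide gene nlp-3 had 5257, 7112 and 7796 CPM in ASEL and 9963, 7054, 11068 and 5237 CPM in ASER, and the FMRFamide-like gene flp-6 had 2223, 3485 and 3453 CPM in ASEL and 7412, 4096, 10178 and 2204 CPM in ASER. Insulin-like genes ins-22, at 339, 533 and 853 CPM in ASEL and 1056, 905, 1221 and 1075 CPM in ASER, and ins-23, at 431, 260.4 and 344 CPM in ASEL and 478, 482, 611 and 792 CPM in ASER, placed ASEL after ASER among the 53 classes. All 4 were called higher in ASEL than in the other 52 classes, with log2 fold changes of 7.38, 5.62, 8.45 and 9.61, and none was called against ASER. Per kilobase of exon, nlp-3 averaged 12951 CPM in ASEL and flp-6 4183 CPM. Over the whole families, 17 of 36 insulin-like genes (47.2%), 13 of 70 nlp genes (18.6%) and 9 of 30 flp genes (30%) were called higher, beside 8.45% of all genes, and 0 were called lower by edgeR. With the other libraries as 1 group, 3 of the 36 insulin-like genes and 1 of the 70 nlp genes were called. Over all genes, 1.01% were called higher in that fit and 0.289% lower. In that fit the flp-6 and flp-20 calls were lost (edgeR adjusted p = 0.3 and 0.8), and flp-13 and flp-25 turned to -1.93 and -0.50 on the log2 scale.

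Against ASER, 3 of 24 insulin-like genes (12.5%), 1 of 62 nlp genes (1.61%) and 1 of 30 flp genes (3.33%) were called higher in ASEL. The share over all genes was 5.27%. The FMRFamide-like gene flp-20 had 339, 439.5 and 340.4 CPM in ASEL and 32.8, 40.9, 114.6 and 73 CPM in ASER (log2 fold change 2.71 ± 0.39, edgeR adjusted p = 0.00047). The only nlp gene called higher was nlp-1, at 317, 347 and 257 CPM in ASEL and 117, 120.2, 148 and 83.2 CPM in ASER. Among insulin-like genes, ins-30 had 1109.9, 1576 and 921 CPM in ASEL and 426, 447, 451 and 228.1 CPM in ASER. For ins-35 the values were 114, 67.7 and 75.3 CPM in ASEL and 45.9, 41.5, 31.8 and 33.5 CPM in ASER, and ASEL was the highest of the 53 classes. The gene ins-27 was called higher too (log2 fold change 1.05 ± 0.26, edgeR adjusted p = 0.019), but not without ASELr150 (adjusted p = 0.095), ASELr151 (0.087) or ASERr145 (0.067). The first 4 of these genes did not overlap between ASEL and ASER libraries. Under the fit of all classes flp-20 alone of the 5 was called, with nlp-1, ins-30 and ins-35 at edgeR adjusted p = 0.37, 0.46 and 0.68.

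The genes lower in ASEL included several that ASER held at high levels. The insulin-like genes ins-3 and ins-4, neighbours on chromosome II, had 8.07, 4.10 and 3.14 CPM and 3.46, 7.52 and 10.2 CPM in ASEL, against 1124, 658, 1547 and 620.3 CPM and 1989, 1079.7, 1956 and 713 CPM in ASER. The log2 fold changes were -7.58 ± 0.53 and -7.32 ± 0.50 (edgeR adjusted p = 1.4e-06 for both). For ins-1, which acts in learning on salt, the libraries had 31.1, 43.1 and 14.8 CPM in ASEL and 1106, 1183, 1624 and 526 CPM in ASER. The insulin-like gene daf-28 had 364, 306 and 277 CPM in ASEL and 4227, 2942, 4076 and 1517 CPM in ASER, and was still called higher in ASEL than in the other 52 classes (log2 fold change 2.77 ± 0.55). Each of these 4 genes was lower in every ASEL library than in every ASER library. In all, 9 of 24 insulin-like genes tested were called lower than in ASER (37.5%, beside 6.08% of all genes). In the fit over all classes 4 were called lower, beside 0.911% of all genes, and daf-28 had an edgeR adjusted p of 0.14. The daf-28 log2 fold change against the other classes was -2.27 with these as 1 group.

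In the nlp family, 1 of 62 genes was called higher (1.61%, beside 5.27% of all genes). A further 16 were called lower (25.8%, beside 6.08% of all genes). The gene nlp-57 had 15, 19.8 and 18.8 CPM in ASEL and 1225, 1141, 1675 and 857 CPM in ASER (log2 fold change -5.88 ± 0.35, edgeR adjusted p = 9.5e-07). The most abundant of them in ASER, nlp-59, had 71.5, 85.4 and 87.2 CPM in ASEL and 3389, 2795, 3973 and 2165 CPM in ASER. For nlp-5 the values were 1.15, 11.6 and 7.95 CPM in ASEL and 849, 499, 948 and 333 CPM in ASER, and for nlp-7 140.6, 110.05 and 120.4 CPM in ASEL and 1965, 1538, 2748 and 884 CPM in ASER. The separation was wide for all 4, with log2 fold changes of -5.03, -6.25 and -3.61 for the last 3. Transcripts of nlp-60 reached 16.1, 1.37 and 3.76 CPM in ASEL, the highest in ASELr149, against 504, 402, 443 and 178.8 CPM in ASER. The secreted protein gene hen-1, known for integrating sensory cues, had 10.4, 11.6 and 13 CPM in ASEL and 170.3, 114, 197.9 and 114.8 CPM in ASER (log2 fold change -3.45 ± 0.31, edgeR adjusted p = 1.0e-05). In the FMRFamide-like family, 2 of 30 were called lower, a share of 6.67% near the 6.08% of all genes. These were flp-9 (121.3 ± 9.03 CPM in ASEL and 648 ± 218.3 CPM in ASER) and flp-15 (26.1 ± 2.66 CPM in ASEL and 90.1 ± 23.1 CPM in ASER; SD, n = 3 and 4). The median log2 fold change of the pan-neuronal list was -0.53 in this pair. In the fit over all classes 8 nlp genes were called lower, beside 0.911% of all genes. There hen-1, flp-9 and flp-15 were not called (edgeR adjusted p = 0.078, 0.11 and 0.21).

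**Figure D4:**
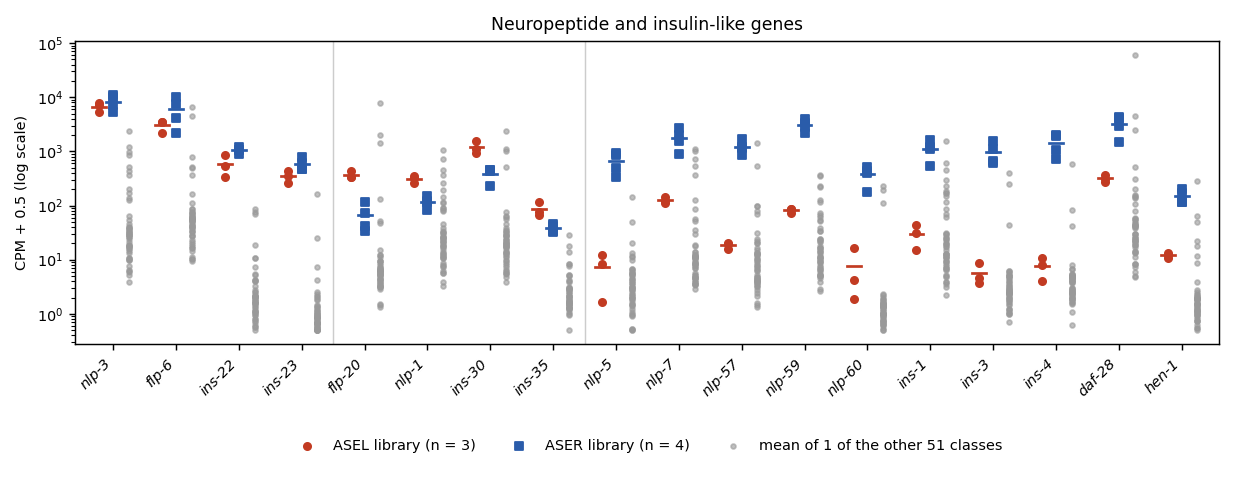
CPM plus 0.5 on a log axis for 18 peptide genes, with circles for the 3 ASEL libraries, squares for the 4 ASER libraries, bars for means and grey points for the means of the other 51 classes. The first 4 genes are high in both neurons, flp-20, nlp-1, ins-30 and ins-35 are higher in ASEL, and the 10 from nlp-5 on are lower in ASEL than in ASER with no overlap.

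Among genes for peptide processing, 1 stood out in the opposite direction. The proprotein convertase gene aex-5 had 484, 391 and 239.01 CPM in ASEL and 10.7, 14.7, 12.2 and 17.3 CPM in ASER (log2 fold change 4.96 ± 0.36, edgeR adjusted p = 1.7e-06). Its mean over the other 52 classes was 369 CPM, against 371 ± 124 CPM in ASEL (SD, n = 3). Of the 15 processing genes, 1 (6.67%) was called higher than in ASER, near the 5.27% of all genes. A further 4 (26.7%) were called lower, beside 6.08% of all genes. The amidating enzyme gene pamn-1 was among the lower ones, at 11.5, 15.7 and 11.5 CPM in ASEL against 42.5, 31.2, 26.8 and 34.6 CPM in ASER, and it was also lower in ASEL than the mean of every other class. The pamn-1 call against ASER was lost without ASELr150 (edgeR adjusted p = 0.081), ASELr151 (0.23), ASERr144 (0.077) or ASERr145 (0.054) and in the fit over all classes (0.11).

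Of 78 listed peptide receptor genes tested, 4 were called higher in ASEL than in ASER and 21 lower. The share called lower was 26.9%, beside 6.08% of all genes, while the share called higher was 5.13%, near the 5.27% of all genes. The FMRFamide-peptide receptor family gene frpr-13 had 117.6, 80.7 and 102 CPM in ASEL and 4.49, 4.81, 3.12 and 1.13 CPM in ASER (log2 fold change 5.07 ± 0.38, edgeR adjusted p = 2.4e-06). The other 3 were dmsr-3, dmsr-6 and npr-13, with means of 31.7 ± 14.2, 25.6 ± 6.30 and 9.73 ± 6.03 CPM in ASEL against 9.41 ± 2.54, 9.54 ± 4.03 and 2.19 ± 0.78 CPM in ASER (SD, n = 3 and 4). The dmsr-6 and npr-13 calls were lost without ASELr151 (edgeR adjusted p = 0.056 and 0.2). In the other direction, npr-1, a receptor known for its role in aggregation, had 2.31, 3.42 and 3.55 CPM in ASEL and 150.3, 99.4, 94.6 and 31.6 CPM in ASER (log2 fold change -4.63 ± 0.52, edgeR adjusted p = 6.5e-05). The receptor gene npr-7 had 25.4, 15 and 17.4 CPM in ASEL and 199.7, 192.9, 137.05 and 79.8 CPM in ASER. Both lay lower in every ASEL library. In the fit over all classes 1 receptor gene was called higher, frpr-13, and 5 lower, beside 0.539% and 0.911% of all genes.

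A few receptor genes were high on both sides. The gene npr-34 had 1744, 1499 and 1439 CPM in ASEL and 3837, 2870.5, 3374 and 1443 CPM in ASER, beside a mean of 114 CPM over the other 52 classes. The gene npr-11 had 167.1, 164.7 and 220.2 CPM in ASEL and 376, 349, 300.3 and 141.5 CPM in ASER. ASEL ranked after ASER for both, and both were called higher in ASEL than in the other classes (log2 fold change 6.80 ± 0.27 and 5.57 ± 0.34). In total 24 of 107 peptide receptor genes (22.4%) were called higher than in the other 52 classes, beside 8.45% of all genes, and 0 lower by edgeR. With the other libraries as 1 group, 1 of the 107 was called, and npr-34 was not (edgeR adjusted p = 0.073). Over all genes, that fit called 1.01% higher and 0.289% lower.

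Few chemoreceptor genes of the sr families were detected well enough to compare ASEL and ASER. Of 848 that passed the filter, 55 (6.49%) were called higher than in the other 52 classes, below the 8.45% of all genes. In the pair 31 passed the filter, of which 3 (9.68%) were called higher and 10 (32.3%) lower. Over all genes in the pair the shares were 5.27% and 6.08%. The gene srg-64 had 281.2, 262 and 247 CPM in ASEL and 87.4, 85.6, 84.9 and 26.7 CPM in ASER, with AFD the highest class at 1001 ± 595 CPM (SD, n = 5). Its log2 fold change was 11.57 ± 0.27 against the other 52 classes, the largest of any gene tested, and 2.12 ± 0.33 against ASER. For str-79 the values were 12.7, 8.89 and 7.74 CPM in ASEL and 1.04, 1.502, 0.312 and 1.13 CPM in ASER, and ASEL was the highest of the 53 classes. Running the other way, srsx-17 had 2.31, 0 and 1.05 CPM in ASEL and 622, 291, 503 and 159.96 CPM in ASER (log2 fold change -8.39 ± 0.69, edgeR adjusted p = 5.2e-06). The receptor gene srxa-5 had 1 count in ASEL and 26.9, 31.5, 44 and 12.4 CPM in ASER. In the fit over all classes srg-64 and str-79 were not called against ASER (edgeR adjusted p = 0.18 and 0.23), and srg-64 was not called with the other libraries as 1 group (0.45).

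Ion channels and signalling proteins gave further differences from ASER. The inward rectifier potassium channel gene irk-1 had 17.3, 6.15 and 15.1 CPM in ASEL and 489.5, 200.7, 336 and 204.8 CPM in ASER (log2 fold change -4.38 ± 0.45, edgeR adjusted p = 3.6e-05). The ERG-type potassium channel gene unc-103 had 101, 72.5 and 78 CPM in ASEL and 838, 352, 489 and 302 CPM in ASER. Of 26 potassium channel genes tested, 7 (26.9%, beside 6.08% of all genes) were called lower in ASEL and 0 higher by edgeR. Against the other 52 classes, 10 of 32 (31.2%, beside 8.45% of all genes) were called higher and 1 (3.12%, beside 3.24%) lower. The KCNQ-type channel gene kqt-3 was highest in ASEL among the 53 classes, at 133, 90.2 and 75.5 CPM in ASEL against 102, 59.8, 60.9 and 93 CPM in ASER, where the groups overlapped and no call was made. In the insulin pathway, the FOXO gene daf-16 had 287, 382 and 363 CPM in ASEL and 2130.1, 1127, 1407 and 702 CPM in ASER (log2 fold change -1.74 ± 0.33, edgeR adjusted p = 0.0038). The serotonin transporter gene mod-5 had 3.46, 4.10 and 11.1 CPM in ASEL and 379, 239.7, 219.8 and 146.8 CPM in ASER (log2 fold change -4.90 ± 0.45, edgeR adjusted p = 1.1e-05). It was the only 1 of 16 transmitter genes called in the pair, a share of 6.25%, near the 6.08% of all genes called lower. The vesicular glutamate transporter gene eat-4, which marks glutamatergic neurons such as ASE, had 154.4, 95 and 67.5 CPM in ASEL and 241.5, 113, 145.2 and 67.4 CPM in ASER.

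Genes for which ASEL stood above every other library were taken as those called higher than in the other 52 classes, with at least 10 CPM in each ASEL library and every ASEL library above each library of the other 52 classes. This rule was met by 24 genes, 0.117% of those tested, and the 20 with the largest log2 fold change were considered. Because the rule chose them by level, their separation is a description. The first was C04F6.7, a protein-coding gene on chromosome X (3416617 to 3419184), with 2039, 1516 and 1586 CPM in ASEL and 117, 49.9, 71.2 and 16.6 CPM in ASER. Its log2 fold change was 10.69 ± 0.26 against the other 52 classes and 5.00 ± 0.49 against ASER, and ASERr144 was the highest library of the other classes. Gcy genes made up 5 of the 20, gcy-6, gcy-7, gcy-14, gcy-17 and gcy-20, and lim-6 and ins-35 were also in it.

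Besides gcy-6 and ins-35, 6 of these genes had ASER as the next highest class. The gene bigr-1 had 678, 589.9 and 625 CPM in ASEL and 374, 134.3, 588 and 94.1 CPM in ASER, so that ASERr146 nearly reached the ASEL libraries. The protein-coding genes F27C1.13 (24.7 to 58.8 CPM in ASEL, 15.4 to 23.7 CPM in ASER), Y53F4B.20 (64.5 to 99.7 and 27.9 to 64.3 CPM) and Y39G8C.2 (69 to 92.2 and 7.90 to 42.5 CPM) had ASER as the next class, as did F21F3.2 (36.2 to 65.7 and 5.31 to 16.6 CPM) and C04F6.7. For the other genes of the 20, a class other than ASER came next. The nicotinic receptor subunit gene eat-2, known for its role in pharyngeal pumping, had 25.4, 10.3 and 17.8 CPM in ASEL and 0.691, 1.80, 0.624 and 0 CPM in ASER. Gene C31E10.11 on chromosome X had 46.1, 107 and 104.1 CPM in ASEL and 2.07, 1.80, 0.624 and 0.753 CPM in ASER. Another 4 were the non-coding genes F09E10.15, K03D7.12 and F40D4.16 and the glyceraldehyde 3-phosphate dehydrogenase gene gpd-4. They averaged 4.08, 0.765, 6.94 and 21.5 CPM in ASER, beside means of 4.93, 1.14, 2.22 and 14.4 CPM over the other 52 classes. The near-identical copy gpd-1 makes the gpd-4 counts uncertain. The gene rga-2 had 147.5, 247.4 and 94.9 CPM in ASEL and 5.87, 6.61, 6.87 and 12.4 CPM in ASER. The call against the other classes held for all 20 with limma-voom and with the other libraries as 1 group. As the rule chose these genes by level in the same libraries, that is no separate support.

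**Figure D5:**
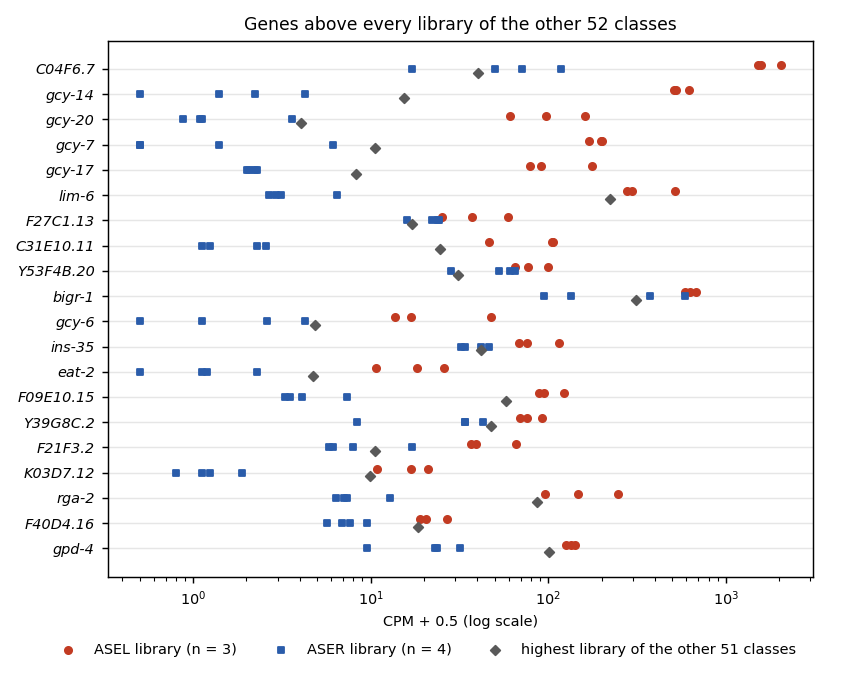
The 20 genes with the largest log2 fold change among those higher in each ASEL library than in all other libraries, by CPM plus 0.5 on a log axis. Circles are the 3 ASEL libraries, squares the 4 ASER libraries and diamonds the highest library of the other 51 classes; gcy-14 shows the widest gap and bigr-1 nearly touches an ASER library.

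A total of 35 genes (0.171%) were called lower, averaged at least 50 CPM over the other 52 classes and had all ASEL libraries below the lowest other class mean. The 10 with the largest fall had log2 fold changes of -1.70 to -1.50. The glycosyltransferase gene bre-3 had 10.4, 15.7 and 14.8 CPM in ASEL, 18.7, 26.4, 33.1 and 20.3 CPM in ASER and a mean of 53.8 CPM over the other 52 classes. The copper transporter gene cua-1 had 21.9, 28.7 and 25.9 CPM in ASEL and 93.7 CPM over the others, and the calnexin gene cnx-1, a chaperone of the endoplasmic reticulum, had 35.7, 40.3 and 51.4 CPM in ASEL and 128 CPM over the others. The remaining 7 were pamn-1, atgp-2, math-33, the cargo receptor gene tmed-10, the tropomodulin gene unc-94, the fatty acid elongase gene elo-3 and the dynein intermediate chain gene dyci-1. ASER also averaged less than the other classes for these 10 genes, with cua-1 at 23.5, 34.8, 30.3 and 36.1 CPM in ASER. Without ASELr149 the number of genes called lower than in the other classes was 113 in place of 662, and elo-3 was not called (edgeR adjusted p = 0.054). With the other libraries as 1 group, 3 of the 10 were called.

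Some of the largest left and right differences concerned genes of no fixed list. In the pair, 408 genes (4.06%) were called higher with a mean of at least 10 CPM in ASEL and no overlap, and 554 (5.51%) were called lower by the same rule for ASER. The largest increase was that of Y77E11A.3, a non-coding gene with 58.8, 44.4 and 45.4 CPM in ASEL and 1 count in ASER. The protein-coding gene K06H6.2 had 12.7, 6.84 and 25.9 CPM in ASEL and 0 counts in ASER, at least 15.1-fold higher. For F13A2.2 ASEL had 17.3, 23.2 and 24.9 CPM and ASER 2 counts in all, and F19G12.3 had 134.9, 71.8 and 94.1 CPM in ASEL and 2.07, 3.61, 2.19 and 0 CPM in ASER. The other 6 of the top 10 were the 4 genes gcy-7, gcy-14, gcy-17 and gcy-20 with lim-6 and C31E10.11.

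On the lower side, T01G6.1 had 0 counts in ASEL and 116, 61.3, 96.8 and 32 CPM in ASER, at least 37.5-fold lower. F13B12.3 also had 0 counts in ASEL, against 103.3, 47.8, 64 and 12.8 CPM in ASER, at least 27.9-fold lower, and it overlaps F13B12.7. The gene idpp-8 had 2 counts in ASEL and 147.2, 126.2, 144.2 and 130.6 CPM in ASER. It overlaps the right cyclase gene gcy-5 on the other strand, and since the counting of strand is not given in the sources used here, reads of the overlap cannot be assigned. C08E8.5 had 0, 0.684 and 0.836 CPM in ASEL and 288, 180.3, 414 and 86.2 CPM in ASER, and F08H9.4 had 1 count in ASEL and 43.5, 22.5, 57.4 and 5.65 CPM in ASER. The others of the 10, gcy-13, ins-3, ins-4, srsx-17 and srxa-5, are described above. All 20 genes of these lists stayed called with limma-voom and in the fit over all classes, where 0.539% of 20427 genes were called higher and 0.911% lower. They were chosen by call, size of change and lack of overlap in the same libraries, so this is no separate support.

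Of 7 listed genes often carried on transgenes, 3 were called higher in ASEL than in ASER, 1 was called lower and 3 (rol-6, pha-1 and let-858) were not called. Over all genes in the pair, 5.27% were called higher and 6.08% lower. The muscle myosin gene unc-54, whose end sequence is common in reporter constructs, had 14463, 7573 and 8179 CPM in ASEL and 1286, 1259, 870.1 and 1747 CPM in ASER (log2 fold change 3.17 ± 0.36, edgeR adjusted p = 7.1e-05). The 5 other muscle genes summed to 2103 to 3047 CPM in ASEL and 2055 to 2556 CPM in ASER. The lin-15 locus, used to rescue transgenic strains, gave 2145, 1819 and 1126 CPM in ASEL and 60.8, 34.5, 33.4 and 32 CPM in ASER for lin-15A. For lin-15B the values were 4086, 3092 and 2462 CPM in ASEL and 188.96, 130.98, 121.4 and 86.2 CPM in ASER, and RIC had the highest class mean for both genes. The groups did not overlap for these 3 genes. The one called lower was unc-119, also used to rescue transgenic strains, with 92.2, 117 and 165.2 CPM in ASEL and 389, 268, 498 and 162.2 CPM in ASER (log2 fold change -1.18 ± 0.34, edgeR adjusted p = 0.04), and its libraries overlapped. That call was lost without any 1 of the ASEL libraries (adjusted p = 0.11, 0.16 and 0.078), without ASERr144 (0.09) or ASERr146 (0.11) and in the fit over all classes (0.4). The constructs of the strains are not given in the sources used here, so a strain difference and a difference between the neurons cannot be told apart. With unc-54 left out of the fit, 530 genes were called higher and 612 lower than in ASER, as with it.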

How the data were processed

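Gene counts came from sorted neurons of C. elegans, with 3 ASEL libraries among 53 classes. The deposited table holds raw counts per gene. STAR 2.7.7a, UMI-tools 1.1.4, Subread 2.0.3 and featureCounts are named in the submitters' processing notes. Strand handling is not given in the sources used here. A further 14 count columns were not used. Counts were tested with edgeR 4.0.16 (R 4.3.3): TMM factors, a filter on low counts by class, the quasi-likelihood test, and Benjamini-Hochberg adjustment over all genes tested, with calls at an adjusted p under 0.05. ASEL was set against the mean of 52 class estimates, each class weighing the same, against 16 ciliated classes in the same fit, and against ASER in a fit of those 7 libraries. The first mean is on the log scale, so that classes at 0 counts raise a fold change. CPM are counts scaled by library size and TMM factor, and 3 counts were the limit for a count of 0. This limit covers counting error only. Genes were named by fixed rules: the lists by function, the 20 above every other library, the 10 below every other class mean, and the 10 of largest change in each direction against ASER. Members and lists were chosen with earlier results of these data known. Alternatives were limma-voom (limma 3.58.1), DESeq2 1.42.0, RLE scaling, no filter, no ribosomal RNA genes, the other libraries as 1 group, all classes in the ASER fit, no unc-54, no classes lacking a kit description, and each ASEL or ASER library left out. Gene names and positions are from the Ensembl 115 annotation of WBcel235.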

Additional observations from a re-analysis of the deposited data

Results flagged for a closer look

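Among the named or listed genes, 10 had an ASER library far from the other 3 by Dixon's ratio of gap to range, which is 7.09% of those checked. Chance gives about 1 in 20 such groups, and the 3 ASEL libraries are too few for this check. ASERr147 stood low for cog-1 (28.2 CPM), ins-30 (228.1 CPM) and srg-64 (26.7 CPM), and high for gcy-7 (5.65 CPM) and rga-2 (12.4 CPM). ASERr144 stood high for gcy-22 (1232 CPM) and gcy-20 (3.11 CPM) and apart for lin-15A (60.8 CPM). ASERr145 stood high for lim-6 (6.01 CPM), and ASERr146 apart for lsy-12 (15.3 CPM). For gcy-7, gcy-20, lim-6, rga-2 and lin-15A the ASEL libraries lay above even the outlying ASER value.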

How the results depend on the processing

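No paired analysis was possible because the library numbers run on through the classes and ASEL and ASER share none. Values here are percentages of the genes tested. With all other libraries as 1 group, 1.01% were called higher in ASEL and 0.289% lower, in place of 8.45% and 3.24%. Lower calls made up 1.54% with limma-voom and 0.991% of 38360 genes with no filter, and 0.553% (without ASELr149) to 2.06% with 1 ASEL library left out (6.21% to 7.04% higher). Against the 16 ciliated classes, lower calls were 0.979% with limma-voom and 0.269% (without ASELr149) to 1.25% with 1 library left out (4.03% to 4.63% higher). Against ASER, fitting all classes together gave 0.539% higher and 0.911% lower, and no filter gave 3.64% of 22460 genes higher. Leaving out 1 library gave 3.03% (without ASELr151) to 9.03% (without ASERr147) higher and 2.95% (without ASELr151) to 9.19% (without ASERr147) lower. With the other libraries as 1 group, log2 fold changes turned negative for daf-28 (-2.27), flp-13 (-1.93), ins-21 (-0.27), nlp-5 (-1.54), nlp-7 (-0.026), nlp-59 (-0.41), nlp-60 (-1.61), flp-25 (-0.50), tax-2 (-0.16), pde-5 (-1.02) and C08E8.5 (-3.03). With 1 ASEL library left out, gcy-1 ran from -1.28 (without ASELr151) to 3.54 against the other 52 classes and from -1.62 to 3.20 against the ciliated ones. The cause was not tested. Against ASER, 1229 of 1325 alternative values for 95 results kept direction and call, 96 lost the call and 0 changed sign. Only 51 of these 95 results kept the call in every alternative. Against the other 52 classes 31 of 89 results did so, and of 801 values 64 lost the call and 12 changed sign. Against the ciliated classes 57 of 77 results did so, and of 539 values 41 lost the call and 1 changed sign. ASELr149, with 76.1% ribosomal RNA, had the least depth for genes near 3 counts, which is 3.46 CPM there.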
